A study of Homo sapiens with 12 samples.

Results

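BT549 cells given both a pool of c-Jun siRNAs and TNFα were compared with BT549 cells given neither. The comparison takes 6 of the 12 arrays of the study: 3 arrays of cells transfected for 72 hours with pooled c-Jun siRNAs and then exposed to TNFα for 6 hours, and 3 arrays of cells transfected for 72 hours with a control siRNA and then exposed to vehicle for 6 hours. The arrays were chosen by their sample labels, and 17958 genes were measured on each. The other 6 arrays, 3 of control siRNA with TNFα and 3 of c-Jun siRNA with vehicle, served to split the joint effect into its parts. BT549 is a human triple-negative breast cancer cell line, all 4 groups had been transfected with an siRNA, and the labels give neither the dose of TNFα nor the sequences of the siRNAs. Results therefore apply to 1 cell line and to a partial knockdown.

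TNFα is an inflammatory cytokine that acts through the receptor TNFRSF1A. Receptor engagement frees NF-kB subunits from their inhibitors and activates the kinase JNK, which phosphorylates c-Jun. c-Jun, the product of JUN, pairs with Fos, ATF or other Jun proteins to form the transcription factor AP-1, which binds many inflammatory, invasion and growth genes and the JUN promoter itself. In breast cancer cells of the triple-negative type, NF-kB and AP-1 are both known for driving cytokine secretion and invasive behaviour. A cell given TNFα and c-Jun siRNA therefore receives an added signal on both pathways and an siRNA against a component of one of them. Whether it holds less c-Jun protein than a control cell was not measured.

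Values are log2 expression per probe set, so that a difference of 1 is a 2-fold change. The joint effect of a gene is its mean in the doubly treated cells minus its mean in the untreated control cells. It equals the sum of the average TNFα effect (the mean over both siRNAs) and the average c-Jun siRNA effect (the mean over vehicle and TNFα), and the errors of these averages are uncorrelated. Genes with both averages past the test add up when the averages have the same sign and oppose when the signs differ. The departure is the joint effect minus the sum of the 2 effects measured singly, each against the untreated control. A gene is called where limma's moderated test gives a Benjamini-Hochberg adjusted p under 0.05 over all 17958 genes. Errors of log2 differences are standard errors (SE) from that fit, with 3 arrays in each group.

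Array medians lay between 5.62 and 5.68. Vehicle and TNFα arrays separated on the first principal component (62.1% of the variance) and the siRNAs on the second (24.4%). The name of the third doubly treated array reads as a second run of the first one's array. The values of these arrays differed by a median of 0.0672, within the 0.0638 to 0.0785 of all pairs of arrays of the same group. Their deviations from the group mean correlated at -0.368, the highest of these pairs (-0.606 to -0.399 in the others). These measures cannot tell a second run from a technical replicate, and the arrays were kept as separate samples. Averaging them gave 6565 genes with a joint call instead of 7056, and leaving out the third array gave 6545. Position codes in the array names, read here as plate columns, place the doubly treated arrays in columns 9, 7 and 9. The control arrays lay in columns 7, 7 and 5, so in this comparison position and treatment overlap in part. The arrays of TNFα alone lay in columns 9, 7 and 7, and those of c-Jun siRNA alone all in column 5. Within the c-Jun siRNA arrays TNFα and column therefore cannot be told apart, which bears on the averages and departures. Array numbers ran from 1 to 6 with control siRNA and from 13 to 24 with c-Jun siRNA. Array number and siRNA therefore cannot be told apart, in the joint effect or in the siRNA averages. The fit with the column as a block called 5888 genes, and no gene called in it and among the 7056 changed sign. It reuses the same arrays, so the kept signs are no independent check. Column 7 holds a single doubly treated array, so the comparison within it is used for effect sizes only. The basal marker list (7 measured) averaged 10.13 to 10.18 over control arrays and 10.26 to 10.30 over doubly treated arrays. Of these 7 markers 1 lay below 5.6 in control cells, and KRT17, TP63 and KRT6B were not measured. Vimentin (VIM), which is on this list, was at 12.68 in both groups. The receptors ESR1 and PGR lay at 4.35 and 3.76 in control cells and at 4.41 and 3.69 in doubly treated cells.

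JUN mRNA was nearly equal in these groups. The control arrays read 10.36, 10.35 and 10.36, and the doubly treated arrays 10.36, 10.33 and 10.39. The groups overlapped, and the doubly treated cells held 100.7% of the control signal. The joint effect was 0.010 ± 0.032 (95% confidence interval -0.057 to 0.077, limma adjusted p = 0.855). The equality was a sum of opposing parts, since TNFα alone brought JUN to 164.9% of control (11.12, 11.05 and 11.05) and the siRNA alone to 69.5% (9.82, 9.85 and 9.81). The average TNFα effect was 0.63 and the average c-Jun siRNA effect -0.62. The departure from the sum was -0.19 (adjusted p = 0.0173), a call lost when no mean-variance trend was fitted, when the position column entered as a fixed block, and when replicate 1 of the TNFα-only cells was left out. The arrays measure mRNA, and c-Jun protein or its phosphorylation was not measured here.

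The JUN promoter is shown because JUN is both the targeted gene and a known AP-1 target. In RefSeq's GRCh38.p14 annotation the window from 250 bases before to 50 bases after the start of JUN is chr1:58783998-58784297 on the minus strand. It is printed 5′ to 3′ with the AP-1-like element TGACATCA in capitals, 67 bases before the start.
JUN: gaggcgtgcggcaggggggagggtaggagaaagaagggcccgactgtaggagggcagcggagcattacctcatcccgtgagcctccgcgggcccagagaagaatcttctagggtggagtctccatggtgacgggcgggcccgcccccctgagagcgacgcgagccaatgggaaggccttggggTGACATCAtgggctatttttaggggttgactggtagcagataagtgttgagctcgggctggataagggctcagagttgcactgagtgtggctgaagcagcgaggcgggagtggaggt
The same 8 letters, on either strand, occur in 2.7% of the 27305 promoter windows of this length, so a match is a description of the sequence and not evidence of binding. This motif was added after the data were seen.

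Other AP-1 genes moved in both directions or were not called. Of 16 measured family members 4 were higher and 5 lower in the doubly treated cells (median joint effect 0.03), where 16.4% of all genes were higher and 22.9% lower. JUNB, a Jun protein with weaker activating capacity, read 9.43, 9.38 and 9.45 in control and 10.81, 10.77 and 10.92 in doubly treated cells, a rise of 1.42 ± 0.047 (adjusted p = 1.83e-14). MAFF, a small Maf protein, rose by 1.31 ± 0.075. The Fos-related FOSL1, which is high in many triple-negative tumours, rose by 0.65 ± 0.041, and FOSL2 by 0.41 ± 0.036. For JUNB, FOSL1 and FOSL2 both treatments raised the mRNA on average, with c-Jun siRNA contributing 0.28, 0.16 and 0.20. Those below control were ATF2 (-0.32), FOSB (-0.28), ATF7 (-0.26), FOS (-0.25) and JUND (-0.13, adjusted p = 0.033, a call lost under 10 of 30 alternatives, 2 of them stricter thresholds). ATF3 (0.05), MAFG (-0.08) and JDP2 (0.23), which represses AP-1, had opposing averages and no joint call, and BATF (0.12), BATF2 (0.17) and BATF3 (-0.10) were not called either.

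ZEB2, a transcription factor that represses epithelial genes, did not return to control as JUN did. Its arrays read 9.07, 9.15 and 9.14 in control and 9.35, 9.46 and 9.40 in doubly treated cells. The groups did not overlap, as was so for 46.9% of all genes in either direction. The joint effect was 0.29 ± 0.039 (limma adjusted p = 7.68e-06). ZEB2 lay 0.78 below TNFα alone. A second, dim ZEB2 probe set (mean 3.52) gave 0.18.

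In all, 7056 genes (39.3%) differed between doubly treated and untreated cells by limma's test. Rises accounted for 2947 genes (16.4%) and falls for 4109 (22.9%), so 58.2% of the calls were falls. That share was 46.7% when each array was centred on its median, a step that moved the median joint effect of all genes from -0.017 to 0.030. Larger changes were mostly rises, with 407 genes at least 2-fold higher and 254 at least 2-fold lower. The averages that make up the joint effect called similar shares of the genes, with TNFα 15.6% higher and 25.6% lower and c-Jun siRNA 18% higher and 18.9% lower. The median SE was 0.065 for a joint effect and 0.046 for an average.

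The highest rises were those of CXCL10, VCAM1 and TNFAIP2, each from a low start. CXCL10, a chemokine that attracts T cells, read 3.26, 3.47 and 3.70 in control cells and 11.16, 11.21 and 11.21 in doubly treated cells. The adhesion molecule VCAM1 went from 4.27, 4.15 and 4.38 to 11.07, 11.09 and 11.08. TNFAIP2, an NF-kB target, went from 5.10, 4.87 and 4.80 to 11.33, 11.41 and 11.45. These rises amounted to 7.72 ± 0.10, 6.81 ± 0.057 and 6.47 ± 0.067, with adjusted p-values of 4.23e-20, 1.13e-22 and 1.92e-21. The control level of each lay below the array median, where background limits how exactly a rise is known. CCL5, a chemokine for T cells and monocytes, read 5.82, 5.97 and 5.89 against 12.28, 12.23 and 12.22, a rise of 6.35 ± 0.041 (adjusted p = 2.36e-24). It was followed by TNFAIP6, a secreted hyaluronan-binding protein (6.06 ± 0.078), the neutrophil chemokine CXCL8 (5.78 ± 0.061) and complement C3 (5.52 ± 0.083). The interferon-stimulated XAF1, SAMD9L, MX1, OAS2 and IFI44L rose by 5.42, 5.37, 4.77, 4.35 and 4.22. EBI3, a cytokine subunit, the guanylate-binding GBP4 and the interleukin receptor chain IL7R rose by 4.53, 4.40 and 4.32. Among these 15 genes TNFα made up nearly the whole rise of CXCL10, TNFAIP2 and IFI44L on average. Their average c-Jun siRNA effects were -0.06, -0.05 and 0.03, but these averages combine values of opposite sign. Without TNFα the siRNA changed them by 0.23 (not called), 0.22 and 0.48. With TNFα it changed them by -0.34, -0.32 and -0.42, each called. In CCL5, CXCL8, IL7R and C3 the average siRNA effect was also above 0, at 1.86, 1.33, 1.15 and 0.99. It was smaller but called in SAMD9L, EBI3, XAF1, VCAM1 and GBP4, at 0.83, 0.62, 0.50, 0.28 and 0.15. In MX1, TNFAIP6 and OAS2 it was called below 0, at -0.28, -0.25 and -0.21.

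The deepest falls were those of PCDH18, BOC and GFRA2. Of the 15 genes that fell furthest 13 had both averages below 0 and past the test, against 7.94% of all genes. The joint effect is the sum of these averages, so ranking by it favours such genes, and the count is no separate result. PCDH18, a protocadherin, read 10.42, 10.17 and 10.28 in control and 7.17, 6.95 and 6.86 in doubly treated cells, a fall of 3.30 ± 0.071 on the log2 scale (adjusted p = 4.39e-17). BOC, a co-receptor of Hedgehog signalling, went from 7.52, 7.41 and 7.42 to 4.49, 4.90 and 4.61. GFRA2, a receptor for neurturin, went from 8.24, 7.98 and 8.25 to 5.59, 5.36 and 5.34. In each of these genes every doubly treated array lay below the lowest control array. This was a condition for naming a gene here, and 46.9% of all genes showed no overlap in either direction. BOC and GFRA2 differed by -2.78 ± 0.10 and -2.73 ± 0.11. The chromatin organiser SATB1 (-2.67 ± 0.079), the transcription regulator TRERF1 (-2.60), the synaptic adhesion gene SLITRK2 (-2.54) and OLFML2B (-2.39) followed. SNAI2, the EMT factor also called Slug, fell by 2.34 ± 0.051. PPDPFL (-2.29), TANC2 (-2.25), the potassium channel KCNK3 (-2.18), the protease inhibitor TIMP3 (-2.14), the phosphodiesterase PDE8B (-2.12), the DNA demethylase TET1 (-2.11) and the neurotensin receptor NTSR1 (-2.10) completed the 15. PPDPFL fell with TNFα (-2.63) and was raised by the siRNA (0.34), and PDE8B moved with TNFα only.

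**Figure D1:**
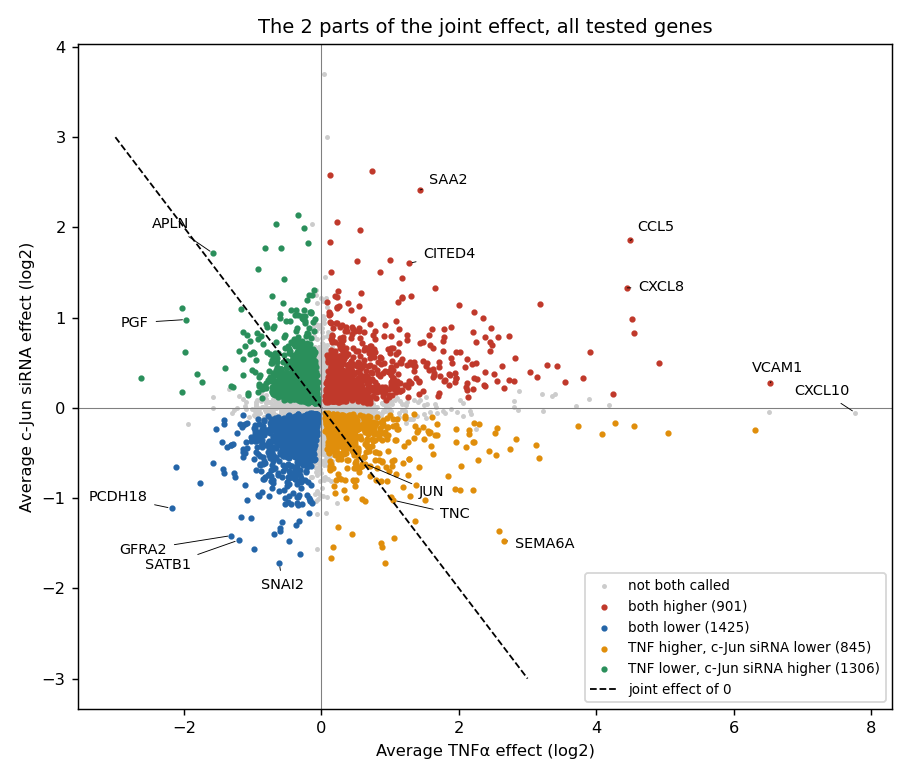
Average TNFα effect (horizontal axis, log2) against average c-Jun siRNA effect (vertical axis, log2) for 17958 genes, coloured by whether both averages passed the test and with which signs; the dashed line marks a joint effect of 0. JUN and TNC lie on the line, CCL5 and CXCL8 at the upper right have both averages high, and CXCL10 lies at the far right with an average c-Jun siRNA effect of -0.06.

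Both averages passed the test with the same sign for 2326 genes and with opposite signs for 2151 genes. Adding up meant a rise for 901 genes (5.02% of those tested) and a fall for 1425 (7.94%). The joint call of these genes follows from how they were chosen and is no separate result. TNFα raised and c-Jun siRNA lowered 845 genes (4.71%), and the reverse held for 1306 (7.27%). The remaining genes had only the TNFα average called (2918), only the siRNA average (2156) or neither (8407).

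Genes raised by both treatments included PMAIP1, CITED4 and SLPI. PMAIP1, the pro-apoptotic BCL2-family protein NOXA, read 7.58, 7.58 and 7.61 in control cells and 10.04, 9.98 and 9.92 in doubly treated cells. It stood at 9.05 on each TNFα array and at 9.10, 9.08 and 9.12 with the siRNA alone. The joint effect of 2.39 ± 0.039 was the sum of an average TNFα part of 1.17 and an average siRNA part of 1.22. CITED4, a transcriptional co-activator, went from 7.64, 7.73 and 7.71 to 10.67, 10.47 and 10.56. Its joint effect was 2.87 ± 0.060 with parts of 1.27 and 1.60. SLPI, a secreted inhibitor of leukocyte proteases, rose by 2.55 ± 0.071, from 7.14, 6.99 and 7.06 to 9.51, 9.69 and 9.63. Its parts were 1.30 and 1.25, and its joint effect exceeded the sum of the single effects (departure 0.44, adjusted p = 0.0119), unlike those of PMAIP1 and CITED4. The interleukin-1 receptor accessory protein IL1RAP, the kinase NUAK2, SOWAHD and FSTL5 rose by 2.40, 3.15, 2.60 and 2.29, with both parts above 1. The immunoproteasome subunit PSMB9 rose by 2.97, with 1.65 from TNFα and 1.33 from the siRNA. The departure was called and below 0 in PMAIP1 (-0.58), CITED4 (-0.39), IL1RAP (-1.11), NUAK2 (-1.38), SOWAHD (-0.72), FSTL5 (-0.71) and PSMB9 (-1.03). Their joint rise was thus smaller than the sum of the single effects. A departure of either sign was called in 273 of the 901 genes raised by both treatments. Both averages were at least 1 in 13 genes and at least 0.5 in 105.

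CXCL8 is the highest-ranked of these genes, by the smaller of their averages, with one of the searched motifs among those whose promoter window was searched. CCL5 and SAA2, ranked above it, were not searched. Its window is chr4:73740319-73740618 on the plus strand (GRCh38.p14). Capitals mark an AP-1 site (TGACTCA, 137 bases before the start) and a κB core (GGAATTTCC, 91 bases before the start).
CXCL8: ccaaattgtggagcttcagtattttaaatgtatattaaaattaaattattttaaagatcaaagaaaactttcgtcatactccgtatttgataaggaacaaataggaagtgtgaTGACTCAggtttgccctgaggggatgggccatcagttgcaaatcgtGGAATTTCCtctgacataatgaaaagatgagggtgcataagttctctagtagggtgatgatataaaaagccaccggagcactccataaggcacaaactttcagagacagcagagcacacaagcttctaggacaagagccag
CXCL8 arrays read 5.69, 5.78 and 6.01 in control, 11.41, 11.42 and 11.40 with TNFα, 8.31, 8.34 and 8.22 with c-Jun siRNA, and 11.63, 11.55 and 11.64 with both. The knockdown group without TNFα thus lay above control on every array.

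Genes lowered by both treatments included SATB1, SNAI2 and OLFML2B. SATB1 read 9.03, 9.13 and 9.11 in control, 8.36, 8.23 and 8.21 with TNFα, 8.03, 7.82 and 8.17 with c-Jun siRNA and 6.56, 6.32 and 6.36 with both. The average parts were -1.21 and -1.47, and the joint fall of 2.67 was deeper than the sum of the single effects by 0.78 (departure -0.78). SNAI2 read 10.98, 10.97 and 11.00 in control and 8.67, 8.52 and 8.76 with both treatments. In SNAI2 the siRNA part (-1.72) was larger than the TNFα part (-0.61), and the departure was -0.57. OLFML2B, an extracellular matrix protein, had equal parts of -1.18 and -1.21 with no called departure (0.16). The septin SEPTIN3 (-1.88), TMCC3 (-1.88), the protocadherin PCDH7 (-1.81), the ferritin receptor SCARA5 (-1.96) and TANC2 had parts between -0.85 and -1.22. Both averages were at or below -1 in 6 genes and at or below -0.5 in 82.

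NTRK2, the receptor of the neurotrophin BDNF, is the highest-ranked gene of this group with a motif among those whose window was searched. GFRA2, SEPTIN3 and SCARA5, ranked above it, were not searched. The NTRK2 window is chr9:84669056-84669355 on the plus strand. Capitals mark a match to the interferon element, TTCCATTTC, read on the other strand, 15 bases after the start. This match is shown as a contrast to CXCL8, since the window holds no AP-1 or κB match.
NTRK2: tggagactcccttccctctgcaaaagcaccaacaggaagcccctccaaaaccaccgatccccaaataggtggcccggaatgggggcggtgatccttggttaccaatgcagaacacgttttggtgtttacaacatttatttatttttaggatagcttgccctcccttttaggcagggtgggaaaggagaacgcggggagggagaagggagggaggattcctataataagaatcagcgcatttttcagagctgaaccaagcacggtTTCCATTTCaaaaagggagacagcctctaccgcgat
NTRK2 read 8.83, 8.97 and 8.94 in control and 7.34, 7.28 and 7.18 in doubly treated cells, a difference of -1.65 ± 0.054 with parts of -0.86 and -0.79.

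**Figure D2:**
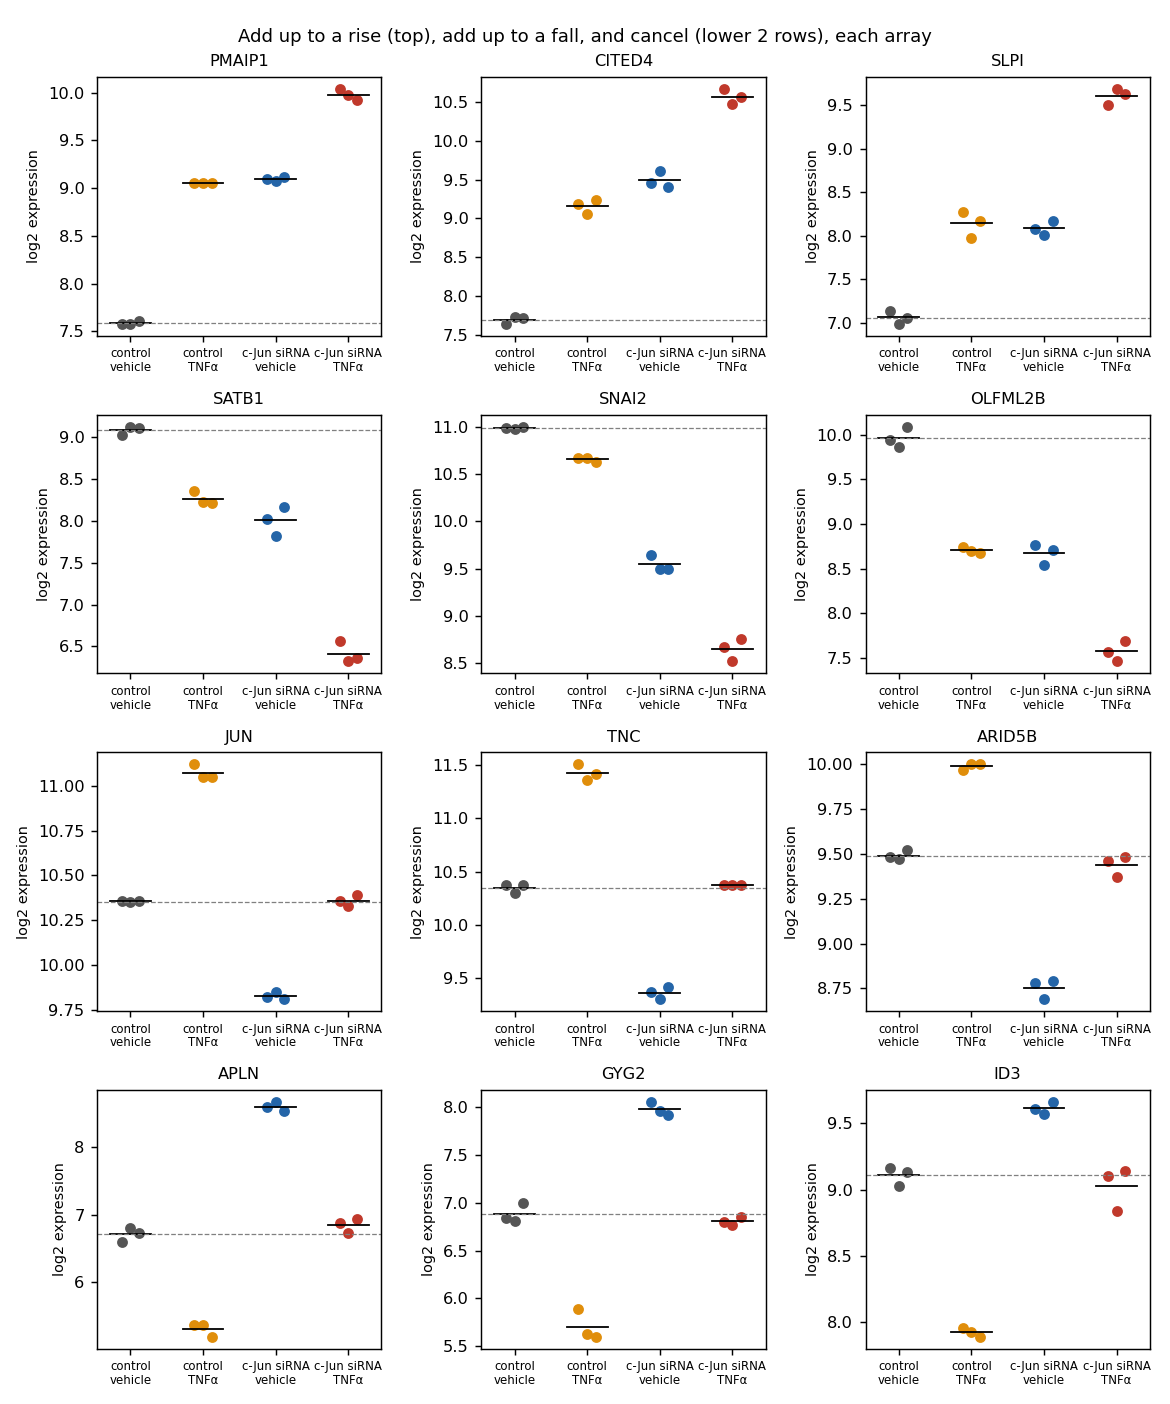
Log2 expression on each of the 12 arrays (points) with group means (bars) for 3 genes of each sign combination, by group. PMAIP1, CITED4 and SLPI climb from control to both treatments, SATB1, SNAI2 and OLFML2B descend, and JUN, TNC, ARID5B, APLN, GYG2 and ID3 end near their control level.

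TNC, ISM1 and other genes with opposing averages ended at or close to their control level. Of the 2151 opposing genes 1217 (56.6%) had no joint call, near the 60.7% of all genes tested. For 1405 (65.3%) the 95% confidence interval of the joint effect lay inside -0.3 to 0.3, against 60.4% of all genes. Most opposing averages were small (medians of 0.23 and -0.21 where TNFα was the raising part, -0.23 and 0.22 where it was the lowering part), so these counts say little about cancelling. Both averages were at least 0.5 in size in 106 opposing genes (58 raised and 48 lowered by TNFα). Of these 37 had no joint call and 31 had the interval inside the limits. Among the genes raised by TNFα and kept within these limits, the matrix glycoprotein tenascin, TNC, had the largest parts. It read 10.37, 10.30 and 10.37 in control, 11.51, 11.36 and 11.42 with TNFα, 9.37, 9.30 and 9.41 with c-Jun siRNA and 10.37 on each doubly treated array. The groups overlapped and the joint effect was 0.02 ± 0.039 (adjusted p = 0.717), from parts of 1.05 and -1.02. ISM1, a secreted protein, read 6.90, 6.82 and 6.90 against 6.87, 6.87 and 6.94, with parts of 1.01 and -0.99 and a joint effect of 0.02 ± 0.058. The laminin chain LAMB3 (0.06), the circadian repressor BHLHE41 (-0.04), the ubiquitin ligase HECW2 (0.05), the DNA-binding ARID5B (-0.05) and the transcription factor KLF9 (-0.09) also had parts of more than 0.5 in opposite directions. The receptor TNFRSF1B, a second receptor for TNFα, ended at 0.15 ± 0.067 (adjusted p = 0.101), a value called under some alternatives, centring among them. For CH25H, an enzyme that makes 25-hydroxycholesterol, the averages mislead. TNFα alone raised it by 1.17, the siRNA alone changed it by -0.04, and both together gave -0.04 (4.25, 4.10 and 4.14 against 4.21, 4.10 and 4.30 in control).

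In the reverse direction, TNFα lowered and the knockdown raised APLN, GYG2 and ID3. APLN, which encodes the vascular peptide apelin, read 6.60, 6.80 and 6.73 in control, 5.37, 5.36 and 5.19 with TNFα, 8.59, 8.67 and 8.53 with c-Jun siRNA and 6.87, 6.73 and 6.93 with both. Its parts of -1.58 and 1.71 left 0.14 ± 0.076 (adjusted p = 0.186). GYG2, a primer of glycogen synthesis, had parts of -1.17 and 1.1 and ended at 6.80, 6.77 and 6.85 against 6.84, 6.81 and 7.0. The difference between these groups was -0.08 ± 0.079. ID3, an inhibitor of helix-loop-helix factors, read 9.16, 9.03 and 9.13 in control and 9.10, 8.84 and 9.14 with both treatments. Its joint effect was -0.08 ± 0.062, although the arrays of TNFα alone lay at 7.96, 7.93 and 7.89. The calcium channel ITPR1 (-0.10), SERTAD4 (0.12), PLAC8 (0.11), HSD17B11 (0.07), MGARP (-0.07) and PLS1 (-0.02), an actin bundler, had no joint call either. PLAC8 was called when arrays were centred on their medians, and AARD (-0.14) was called at the very limit of the threshold and lost its call under most alternatives. A missed call does not show equality, and the 95% intervals are the measure of it.

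Other opposing genes kept a joint change because one part outweighed the other. SLC7A2, a transporter of arginine, was raised by TNFα (2.58) more than it was lowered by the siRNA (-1.37) and ended 1.21 ± 0.073 above control (8.22, 8.0 and 8.06 against 9.33, 9.34 and 9.24). The semaphorin SEMA6A (1.18), the lipolysis inhibitor G0S2 (1.29), the Notch-related DNER (1.1) and the cardiac cofactor ZFPM2 (0.49) also stayed above control. PDGFRL ended below it at -0.79 ± 0.061, with 8.13, 8.08 and 8.29 in control and 7.43, 7.29 and 7.42 with both treatments. The T-box factor EOMES ended at -0.38 ± 0.056. Among genes lowered by TNFα, PADI3, a peptidylarginine deiminase, ended above control (0.62 ± 0.053) and so did PLEKHA6 (0.95 ± 0.077), whereas BRINP1 (-0.92 ± 0.094), the virus receptor CXADR (-0.30) and the iron reductase CYBRD1 (-0.27) ended below. By contrast, PLAT, the tissue plasminogen activator, had no joint call. Its averages of 1.36 and -1.25 left a joint effect of 0.11 ± 0.097 (limma adjusted p = 0.449), with a departure of -1.28. PLAT arrays read 5.90, 5.96 and 5.92 in control and 5.97, 6.17 and 5.97 with both treatments.

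Among opposing genes whose window was searched, NR4A3 and BRINP1 are the highest-ranked of their sign combinations with a motif. SEMA6A, SLC7A2, PLAT, ZFPM2 and ISM1, ranked above NR4A3, were not searched. The NR4A3 window, chr9:99821635-99821934 on the plus strand, holds a κB core (GGAGTTTCC, 232 bases before the start). The BRINP1 window, chr9:119369386-119369685 on the minus strand, holds a match to the interferon element on the other strand (TTCATTTTC, 99 bases before the start). Capitals mark these matches.
NR4A3: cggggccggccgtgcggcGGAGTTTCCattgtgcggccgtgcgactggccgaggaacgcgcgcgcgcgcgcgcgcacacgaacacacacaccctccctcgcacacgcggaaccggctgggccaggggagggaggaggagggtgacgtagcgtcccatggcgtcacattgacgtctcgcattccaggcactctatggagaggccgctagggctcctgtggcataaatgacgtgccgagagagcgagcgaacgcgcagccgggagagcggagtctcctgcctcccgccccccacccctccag
BRINP1: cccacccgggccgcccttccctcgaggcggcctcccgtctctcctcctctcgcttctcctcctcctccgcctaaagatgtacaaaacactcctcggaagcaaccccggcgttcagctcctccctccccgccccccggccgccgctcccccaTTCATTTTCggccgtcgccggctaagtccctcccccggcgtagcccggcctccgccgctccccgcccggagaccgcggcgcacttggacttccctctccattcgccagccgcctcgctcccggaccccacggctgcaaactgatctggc
NR4A3, an orphan nuclear receptor and early response gene, read 7.90, 7.86 and 7.92 in control and 8.22, 8.17 and 8.23 with both treatments. Its joint effect of 0.31 ± 0.047 came from parts of 1.29 and -0.98. BRINP1, a neural cell cycle inhibitor, read 7.33, 7.21 and 7.13 against 6.17, 6.47 and 6.27.

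The departure from the sum asks whether the doubly treated cells differ from the total of the single effects. It was above 0 for 338 genes (1.88%) and below 0 for 645 (3.59%), and 838 of these 983 genes also had a joint call. Departure and joint effect had the same sign in 212 of them and opposite signs in 626. An error in the departure is uncorrelated with one in the joint effect, since their contrasts are orthogonal in this balanced design. The median SE of a departure was 0.092.

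Among genes whose joint effect exceeded the sum, SAA2, an acute-phase protein, stood apart. It read 3.97, 4.02 and 3.82 in control, 4.24, 4.23 and 3.90 with TNFα, 5.11, 4.95 and 5.25 with c-Jun siRNA and 7.85, 7.48 and 8.05 with both. The single effects of 0.19 and 1.17 sum to 1.35, and the joint effect was 3.85 ± 0.13, a departure of 2.50 (adjusted p = 5.06e-08). A second SAA2 probe set gave a joint effect of 0.61, and SAA genes share sequence, so the size is uncertain. IGFL1 read 5.17, 5.02 and 4.81 in control and 6.76, 7.20 and 7.19 with both, while neither single treatment group left the range 4.83 to 5.44. EDN1, the vasoconstrictor endothelin-1, went from 6.06, 6.14 and 5.91 to 8.75, 8.61 and 8.68 with both treatments. Its single effects summed to 0.98 and its joint effect was 2.64 ± 0.074. The ligand TNFSF18 of the GITR receptor (joint effect 3.17, sum 1.92), the protease inhibitor PI15 (2.11, sum 0.86), the basement membrane protein LAD1 (2.78, sum 1.83) and the sialyltransferase ST8SIA4 (1.68, sum 0.76) also exceeded their sums. In 3 genes the joint effect fell below control although the sum lay above it. The placental growth factor PGF (-0.99 ± 0.071, sum 0.50), the amine oxidase MAOB (-0.43 ± 0.089, sum 0.70) and TGFB3 (-0.35 ± 0.092, sum 0.57) are these genes. The MAOB call was lost where values below 5 were raised to 5 (-0.07), and the TGFB3 call with the position column as a fixed block (-0.34). Within position column 7, which holds a single doubly treated array, the TGFB3 joint effect was -0.20. PGF read 6.60, 6.58 and 6.51 in control, 8.37, 8.24 and 8.25 with c-Jun siRNA and 5.58, 5.62 and 5.51 with both.

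Of the 983 genes with a called departure, 445 had a called joint rise with a departure below 0, that is, a rise smaller than the sum. In 181 the joint fall was shallower than the sum, and in 98 and 114 a joint rise or fall lay beyond it. The others had no joint call (59 with a departure above 0 and 86 below). In the chemokines CCL5, CXCL8 and CCL2 the single effects summed to 8.78, 8.05 and 5.03 and the joint effects were 6.35, 5.78 and 3.34. CCL2, a monocyte chemokine, read 9.38, 9.44 and 9.56 in control, 12.69, 12.62 and 12.67 with TNFα, 11.26, 11.30 and 11.33 with c-Jun siRNA and 12.78, 12.84 and 12.79 with both. The peptide transporter TAP1 had a sum of 4.75 and a joint effect of 3.35 ± 0.033. In these genes both treatments alone raised the mRNA and the doubly treated arrays lay a little above those with TNFα alone. In other genes the doubly treated arrays lay below those with TNFα alone. TNFRSF9, the costimulatory receptor 4-1BB, read 7.61, 7.73 and 7.69 with TNFα and 6.15, 6.22 and 6.43 with both, with 4.56, 4.58 and 4.54 in control. The acute-phase inhibitor SERPINA3 (2.62 against a sum of 4.02), the lipid phosphatase SGPP2 (2.02, sum 3.42), GPR37L1 (1.96, sum 3.40) and IFIT1 (3.73, sum 5.36) showed the same order. PTX3, a pentraxin of innate immunity, reached 6.65, 6.68 and 7.06 with TNFα and 4.92, 5.32 and 4.89 with both. Its joint effect was 1.04 ± 0.12, its call was lost where values below 5 were raised to 5, and the siRNA alone changed it by -0.05.

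**Figure D3:**
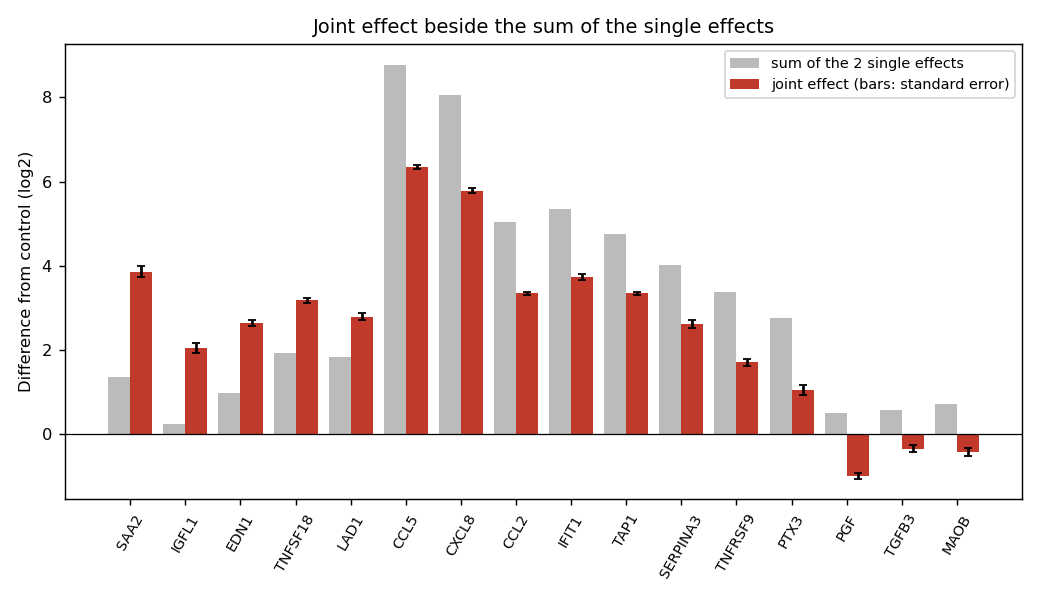
For 16 genes with a called departure, the sum of the single effects (TNFα alone plus c-Jun siRNA alone, each against control, log2) beside the measured joint effect (log2), with its SE as the error bar. SAA2, IGFL1 and EDN1 exceed their sums, CCL5, CXCL8 and CCL2 fall short of theirs, and PGF, TGFB3 and MAOB end below 0 with sums above 0.

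Gene groups are described next by the counts of their measured members, beside the joint shares of all genes (16.4% higher, 22.9% lower) and the median joint effect of all genes, -0.017. The lists were drawn up with earlier results of these data known, so their counts are descriptions. Against the single treatments, 28.5% of all genes differed between the joint and the TNFα group and 29.6% between the joint and the siRNA group.

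NF-kB and its feedback genes were high in the doubly treated cells. Of 23 early response genes 22 rose, with a median joint effect of 1.98, and TNIP2 was not called. The inhibitor NFKBIA read 9.51, 9.39 and 9.60 in control and 12.62, 12.52 and 12.62 with both treatments, a rise of 3.09 ± 0.048, and the deubiquitinase TNFAIP3, which restrains the pathway, rose by 4.13 ± 0.055. The subunits NFKB2, RELB, NFKB1 and REL rose by 2.29, 2.23, 1.67 and 1.54. In REL the siRNA part (0.76) was about as large as the TNFα part (0.78), and in NFKB2 and RELB it was 0.67 and 0.37. Compared with TNFα alone, 10 members were lower and 4 higher in the joint group, with TNIP3 (-1.13) and TNFAIP8 (-0.69) furthest below. ICAM1, a leukocyte adhesion molecule, rose by 2.87 ± 0.042. The departure was called in 15 members and was below 0 in each.

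Secreted signals rose in the same way. Of 29 cytokines and chemokines 22 rose (median 1.52), and IL1A, CXCL9, CCL8, IL11, IL24 and IL33 had no called average. LIF, a cytokine of the interleukin-6 family, read 4.93, 5.11 and 5.11 against 8.92, 8.97 and 8.95, a rise of 3.90 ± 0.074, although its dimmer second probe set gave 0.89. IL6 rose by 3.19 ± 0.050, its second probe set by 0.39. The growth factor CSF1 and the neutrophil chemokines CXCL2, CXCL5 and CXCL3 rose by 2.55, 2.54, 2.66 and 1.26, and CCL20 by 3.36. Relative to TNFα alone 8 members were higher, led by CXCL5 (1.01) and CCL5 (0.64), and 6 lower, led by TSLP (-0.81) and CXCL11 (-0.60).

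Interferon-stimulated genes rose less with both treatments than with TNFα alone. Of 34 measured members 32 were above control (median 2.64), and 21 were below and 1 above the TNFα group. MX1, an antiviral GTPase, read 4.49, 4.41 and 4.53 in control, 10.02, 9.94 and 9.86 with TNFα and 9.29, 9.13 and 9.33 with both. Its joint effect was 4.77 ± 0.069, of which the siRNA average took -0.28. IFIT1 (3.73), the RNA sensor IFIH1 (4.10) and IFIT5 (2.71) lay 0.79, 0.78 and 0.79 below TNFα alone on the log2 scale. SAMD9L is the member above it (0.23). The siRNA average itself was positive in 13 members and negative in 13, and the departure was below 0 in each of the 27 members where it was called. ISG20, an exonuclease, had a TNFα average of 0.46, an siRNA average of -0.49 and a joint effect of -0.03.

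Antigen presentation genes were higher in the doubly treated cells. All 16 measured genes of MHC class I presentation were called (median 1.48), and 13 of them had both averages above 0. The departure was called in 12 members and was below 0 in each, so their rise was smaller than the sum of the single effects. TAP1 read 8.37, 8.33 and 8.35 in control and 11.71, 11.68 and 11.70 with both treatments. PSMB9 went from 6.5, 6.46 and 6.58 to 9.46, 9.53 and 9.48, and ERAP1, a peptide trimming enzyme, rose by 2.00 ± 0.037. HLA-B rose by 1.99 ± 0.034, HLA-C by 1.41 and the shared light chain B2M by 0.88. HLA genes are near-identical in parts, so probe sets may take signal from each other. The joint group exceeded TNFα alone in 9 members and lay below it in NLRC5 (-0.26), the regulator of class I genes.

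AP-1 target genes split by treatment. Of 25 measured members 11 were higher and 5 lower (median 0.08), and 9 were raised by TNFα and lowered by the siRNA. The collagenase MMP1 read 7.12, 7.22 and 7.25 in control and 9.43, 9.22 and 9.29 with both, a rise of 2.12 ± 0.066 that was 0.51 below TNFα alone. MMP9, a gelatinase, was 0.33 above control and 1.11 below TNFα alone. Stromelysin MMP3 (2.22 ± 0.12), cyclin D1 CCND1 (1.38 ± 0.044), THBS1 (1.13) and urokinase PLAU (0.95) rose with both averages above 0. A second, dim CCND1 probe set gave 0.07. The gap junction gene GJA1 fell by 1.32 ± 0.051 from 10.33, 10.27 and 10.33 to 9.10, 9.05 and 8.84, with both averages below 0. VEGFA (-0.74), TGFB1 (-0.37), fibronectin FN1 (-0.24) and TIMP1 (-0.15) were lower. MMP13 (0.01) and HBEGF (0.08) had opposing averages and no joint call.

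MAPK feedback and early genes moved in both directions. Of 24 measured members 9 were higher and 8 lower, and 7 were raised by TNFα and lowered by the siRNA. DUSP5 (0.03), DUSP6 (-0.06) and DUSP10 (-0.13), which dephosphorylate MAP kinases, had no joint call with such averages. DUSP4 fell by 0.95 ± 0.038, and its siRNA average was not called. EGR1 and EGR3, early growth response factors, were lower by 0.87 and 0.75 with siRNA averages of -0.89 and -0.95. IER5 and KLF10 rose by 1.11 and 1.01, and SPRED2, an inhibitor of Ras signalling, read 10.60, 10.55 and 10.55 against 9.56, 9.50 and 9.54, a fall of 1.03 with equal parts. The list's median joint effect was 0.01 and turned to -0.02 with quantile normalisation.

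Targets of YAP and TEAD were more often higher than lower in the doubly treated cells. Of 24 measured members 16 were higher and 3 lower (median 0.27), the siRNA average was above 0 in 14 and the TNFα average in 10, and 13 exceeded TNFα alone. CCN1, a secreted matricellular protein, read 9.17, 9.22 and 9.26 in control, 10.55, 10.58 and 10.54 with TNFα, 11.18, 11.22 and 11.22 with c-Jun siRNA and 11.58, 11.59 and 11.57 with both. The joint rise of 2.36 ± 0.031 fell short of the sum by 0.97. CCN2 and the LIM protein AJUBA rose by 1.20 ± 0.035 and 1.5 ± 0.048, with TNFα averages of 0.02 and 0.05 that were not called. CRIM1 and WWC1 rose by 1.55 and 1.55 with both averages above 0. TGFB2, DOCK5 and MYOF were the lower members (-0.83, -0.33 and -0.08).

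Mesenchymal and EMT factors were lower more often than higher. Of 20 measured members 10 were lower and 4 higher (median -0.13), and centring on array medians gave 9 and 4. Beside SNAI2, the cadherin CDH11 fell by 1.27 ± 0.031 (11.51, 11.56 and 11.54 against 10.28, 10.26 and 10.27). ZEB1 (-0.42), TWIST1 (-0.33), SNAI1 (-0.34) and CDH2 (-0.19) were lower, while FAP (0.98), LOX (0.49), ZEB2 (0.29) and LOXL2 (0.19) were higher. VIM (0.00), PRRX1 (0.01) and SPARC (-0.02) had opposing averages and no joint call. Of 19 epithelial genes 5 rose and 3 fell. The tight junction gene CLDN1 rose by 2.39 ± 0.039, from 10.57, 10.62 and 10.58 to 13.06, 12.88 and 13. E-cadherin CDH1 rose by 1.03 ± 0.090 from a low 4.31, 4.52 and 4.52 to 5.61, 5.42 and 5.42. Desmoplakin DSP fell by 1.53 ± 0.047, with an siRNA average of -1.66 and a TNFα average of 0.14. The epithelial genes EPCAM, ESRP1 and GRHL2 were dim, at 4.06, 3.94 and 4.32 in control cells, and not called.

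Matrix and adhesion genes moved in all 4 combinations. Of 27 measured members 15 were higher and 6 lower. ITGB8 (0.86 ± 0.079), ITGAV (0.68 ± 0.034), COL4A1 (0.56), COL1A2 (0.47) and ITGB5 (0.42) were higher. TIMP3, which inhibits matrix proteases, read 10.23, 10.17 and 10.26 against 8.07, 8.07 and 8.09, with parts of -1.42 and -0.72. ITGB3 (-1.0 ± 0.082), TIMP2 (-0.70) and THBS2 (-0.67) were also lowered by both treatments. The chains COL3A1 and FBN1, raised by TNFα and lowered by the siRNA, ended at 0.24 and 0.21 above control.

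Hypoxia and glycolysis genes combined a TNFα fall with a rise under the siRNA. Of 23 measured members 15 were lower and 2 higher (median -0.14), and 12 and 4 with arrays centred. TNFα lowered 20 on average, the siRNA raised 13, and 12 had both. The glycolytic regulator PFKFB4 read 8.10, 8.19 and 8.20 in control and 6.65, 6.59 and 6.91 with both, a fall of 1.45 ± 0.082. PDK1, a kinase that limits pyruvate oxidation, fell by 0.64 and the mTOR inhibitor DDIT4 by 0.28, and both lay above their level with TNFα alone. CA12, a carbonic anhydrase, fell by 1.54 ± 0.055 with both averages below 0. The peptide ADM, adrenomedullin, rose by 1.17 ± 0.049, from 8.59, 8.63 and 8.56 to 9.82, 9.66 and 9.81, with an siRNA average of 1.25 and a departure of 0.73. LDHA (0.07), P4HA1 (0.07), ENO1 (0.02) and GBE1 (-0.02) had opposing averages and no joint call.

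Stress and redox genes were more often above control. Of 24 amino acid and unfolded protein stress genes 18 were higher and 2 lower (median 0.20). The siRNA average was above 0 in 20, and 18 exceeded TNFα alone. The cystine transporter SLC7A11 (0.82 ± 0.051), XBP1 (0.76 ± 0.050), SDF2L1 (0.66), CEBPB (0.65) and CHAC1 (0.64) led, and CHAC1, which degrades glutathione, was lowered by TNFα (-0.39) and raised by the siRNA (1.03). DDIT3 and EDEM1 were lower (both -0.22). Of 15 genes of oxidative defence 6 were higher and 1 lower, with TXNRD1 (0.84), GCLM (0.76), HMOX1 (0.54) and SRXN1 (0.40) above and catalase CAT (-0.52) below. Of 12 heat shock genes 3 were higher and 2 lower, with HSPA1A (0.31) and DNAJA1 (0.32) above and the co-chaperone BAG3 (-0.55) below.

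Receptor signalling and cell death genes rose more often than they fell. Of 18 measured TNF receptor components 11 were higher and 2 lower (median 0.17). BIRC2, a ubiquitin ligase, rose by 1.29 ± 0.044, the initiator caspase CASP8 by 1.06 ± 0.050 and its inhibitor CFLAR by 1.06 ± 0.059, each with both averages above 0. Of 22 death and survival regulators 11 were higher and 4 lower (median 0.22). CASP4 rose by 1.38, the death receptors FAS and TNFRSF10B by 1.13 and 0.80, and the pro-apoptotic BCL2L11, or BIM, fell by 1.04 ± 0.055. BCL2L11 read 8.15, 8.29 and 8.20 in control and 7.19, 7.10 and 7.24 with both, opposite in direction to PMAIP1. BMF (-0.44) and CASP9 (-0.73) were also lower. Of 15 p53 targets and cell cycle inhibitors 8 were higher and 4 lower, with ZMAT3 (1.12) and PLK2 (1.04) above and CDKN1B (-0.43) below. CDKN1A, the inhibitor p21, had parts of 1.19 and -0.88 and ended 0.31 above control, 0.93 below TNFα alone.

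Cell cycle genes moved in both directions. Of 26 DNA replication genes 11 were higher and 5 lower (median 0.07), and 13 and 3 with centred arrays and 10 and 8 with quantile normalisation. TNFα lowered 15 and raised 1 on average, and the siRNA raised 13 and lowered 1. TYMS (0.37), RRM2 (0.28) and CDC6 (0.26) were higher and RFC5 (-0.32) and PRIM1 (-0.31) lower. Of 25 mitosis genes 11 were lower, and with centred arrays 8 were lower and 1 higher. CDC25C (-0.37), MAD2L1 (-0.37) and CENPA (-0.35) had the largest differences. Among 19 G1 and growth regulators 4 were higher and 3 lower. CDK6, a G1 kinase, rose by 1.46 ± 0.043 and ID2 by 0.86, while E2F2 (-0.72) and ID1 (-0.38) were lower.

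Metal, lipid and TGF-β family genes gave mixed sums. Of 14 metallothionein and zinc transporter genes 10 were higher and 2 lower (median 0.39), and 8 were raised by TNFα and lowered by the siRNA. The zinc importers SLC39A8 and SLC39A14 rose by 1.35 ± 0.030 and 1.27 ± 0.033. MT1F, a metal-binding protein, ended below control, with 11.12, 11.19 and 11.26 against 10.50, 10.55 and 10.53 (-0.66 ± 0.075), and MT1G ended above it (0.57 ± 0.083). Metallothionein genes are close paralogs, so their separate values are uncertain. Of 18 cholesterol and fatty acid genes 3 were higher and 8 lower, with HMGCS1 (0.38) above and the regulator SREBF1 (-0.66) below. Of 21 TGF-β and BMP genes 7 were higher and 9 lower. INHBA, the activin subunit, read 6.09, 5.99 and 6.03 against 9.42, 9.40 and 9.41, a rise of 3.38 ± 0.050, and BAMBI and FST, which inhibit signalling of this family, rose by 1.45 and 1.40. BMP6 was lower (-0.63), with parts of 0.87 and -1.5.

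Markers of other cell types and reference genes bound these results. Of 13 leukocyte markers 11 lay below 5.6 in both groups, and PTPRC was at 3.83 in both. ITGAM rose by 0.69 from a dim 4.68, and NCAM1, also a neural adhesion gene, was lower (-0.26). The leukocyte list averaged 5.32 to 5.36 over control arrays and 5.38 to 5.41 over doubly treated arrays. The endothelial list (10 measured) averaged 5.01 to 5.09 and 5.33 to 5.34, with ROBO4 (1.63), TEK (0.89) and EGFL7 (0.24) higher. The EGFL7 call was lost under 8 of 30 alternatives, with a value of 0.11 within position column 7. The defining endothelial markers PECAM1, CDH5 and VWF lay at 4.70, 4.35 and 3.98 in control cells and were not called, and what part these markers have in other results was not tested. Of 15 luminal markers 4 were higher and 3 lower, with the epithelial factor ELF3 at 2.01 and GATA3 at -1.05. Of 7 basal markers 3 were higher, with EGFR at 0.47. Among 9 reference genes ACTB (0.04) and GAPDH (0.01) were not called, TBP was higher (0.28), and GUSB (-0.36), PGK1 (-0.14) and SDHA (-0.13) were lower. Of 24 mitochondrial ribosomal genes 2 were higher and 4 lower, and 8 and 1 with centred arrays.

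**Figure D4:**
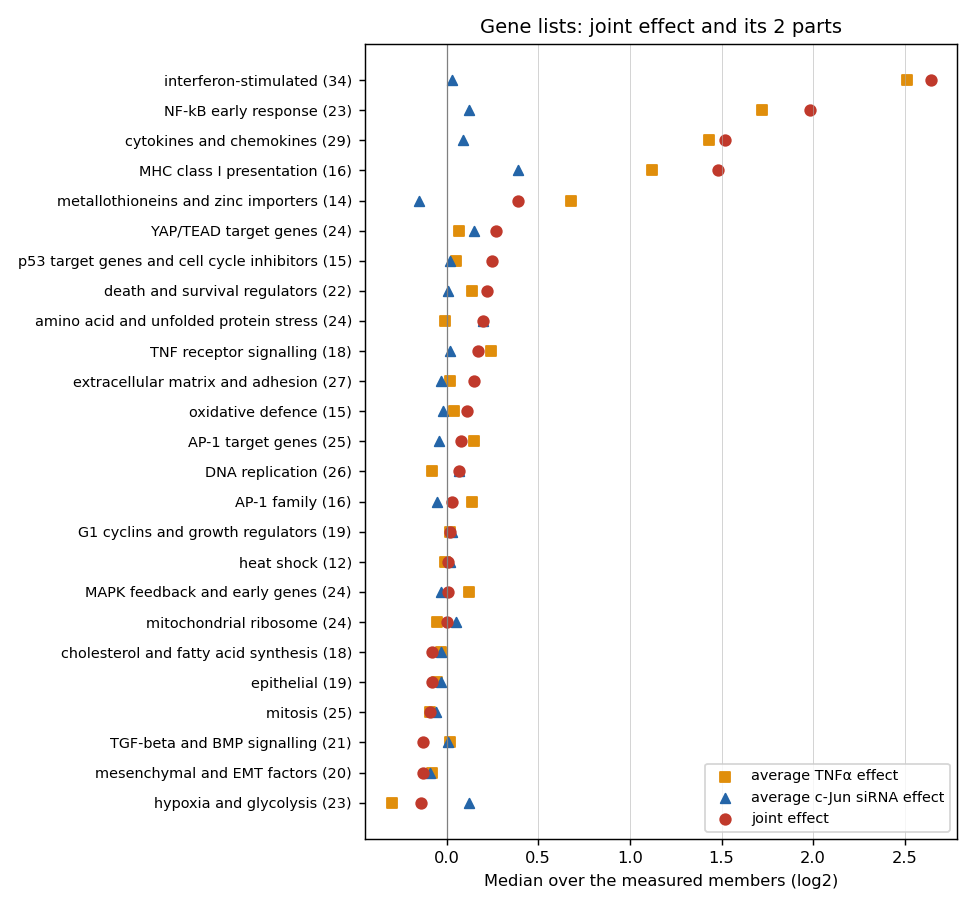
Median log2 joint effect, average TNFα effect and average c-Jun siRNA effect over the measured members of 25 gene lists (horizontal axis, log2; 1 list per line). The interferon-stimulated list (joint 2.64) and the NF-kB list (1.98) have siRNA medians of 0.03 and 0.12, MHC class I presentation has both medians above 0 (1.12 and 0.39), and hypoxia and glycolysis has medians of opposite sign (-0.30 and 0.12).

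Promoter motifs were counted in the RefSeq windows of the 13864 tested genes that had one. The κB core GGNNTTTCC, on either strand, was present in 6.6% of them, in 11.5% of genes raised by both treatments and in 3.7% of genes lowered by both. Opposing genes held it in 8.5% where TNFα was the raising part and in 4.6% where it was the lowering part. Genes at least 2-fold above control held it in 16% of windows and those at least 2-fold below in 4.3%. The interferon element GAAANNGAA was found in 6.8% of tested genes, in 18.6% of the 2-fold rises and in 4.3% of the 2-fold falls. The AP-1 site TGANTCA differed less, at 5.6% of tested genes, 6.1% and 4.4% of genes raised or lowered by both, 5.0% and 4.3% of the opposing genes, and 8.2% and 4.8% of the 2-fold rises and falls. Over all 27305 windows these motifs occurred in 6.3%, 8.3% and 7.8%. These shares describe letters in short windows, and binding was not measured here.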

How the data were processed

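Expression was measured on Affymetrix Human Gene 1.1 ST arrays, 3 per group, in 12 samples. The submitters' processing notes name Affymetrix Expression Console 1.1 and PLIER, without their roles. The deposited values are taken as log2 signals from their range, 2.27 to 13.97, and were used without further scaling. Of 33297 probe sets 19181 had a single gene symbol, 2055 several and 12061 none. One probe set per gene, that with the highest mean over all arrays, left 17958 genes, 895 of which had more than 1. The labels do not say that replicates came from separate cultures, so a p-value here reflects only how far these samples scatter, which may be technical. Precision is limited by the 3 arrays in each group.

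Group means were fitted to all 12 arrays with limma 3.58.1 (R 4.3.3, lmFit and eBayes with a mean-variance trend, 8 residual degrees of freedom). P-values were adjusted by Benjamini-Hochberg over all genes, and the fit was tested on simulated data. Comparisons with TNFα alone and siRNA alone share the control or doubly treated arrays with the joint effect, so their values are only set side by side. Tables were joined with Python 3.11.15 and pandas 2.3.3 and drawn with matplotlib 3.10.9.

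Named genes were the AP-1 family, JUN and ZEB2; the 15 largest rises and falls without overlap; per sign combination 12 genes by the smaller average; 10 per direction among genes cancelled within 0.3; 10 per direction of departure; and list members. Promoter sequences are RefSeq's (GRCh38.p14), for the highest-ranked searched gene of each sign combination with a match, and JUN. The members and lists were chosen with earlier results of these data known. Alternatives covered scaling, floors, filters, probe set choice, thresholds, position, the repeat-named array and leaving out each array.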

Additional observations from a re-analysis of the deposited data

Results flagged for a closer look

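The joint effect of 983 genes differed from the sum of the single effects by a test of that difference, limma's interaction contrast, which is why the following genes deserve a closer look. Departures (log2) in the direction of the joint effect were 2.50 for SAA2, 1.82 for IGFL1, 1.66 for EDN1, 1.25 for TNFSF18, 1.25 for PI15, 0.95 for LAD1 and 0.92 for ST8SIA4, and, below 0, -1.49 for PGF, -1.13 for MAOB and -0.91 for TGFB3. Departures against the direction of the joint effect were -2.43 for CCL5, -2.27 for CXCL8, -1.70 for PTX3, -1.69 for CCL2, -1.67 for TNFRSF9, -1.62 for IFIT1, -1.44 for GPR37L1, -1.40 for TAP1, -1.40 for SERPINA3 and -1.40 for SGPP2. JUN itself departed by -0.19 and ZEB2 by -0.38.

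Probe sets outside the gene table also differed between doubly treated and control cells. Of 2055 probe sets with several symbols 340 (16.5%) were called, 154 higher and 186 lower. Of 12061 without a symbol 450 (3.73%) were called, 219 higher and 231 lower. Both shares lay below the 39.3% of genes called. These probe sets were fitted and adjusted apart from the genes, so the same adjusted p is not the same threshold.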

How the results depend on the processing

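Over 31 settings, the reported one included, no joint call shared with it changed sign. Values for single genes and lists counted as unchanged in 11320 cases, lost the call in 254, gained it in 6 and moved in 135. A gene counted as unchanged when it stayed on its side of the threshold. Uncalled values could still change sign, as TNC did (-0.006 to 0.070). A list counted as moved when its median shifted by more than the standard deviation of its medians over the doubly treated arrays. At an adjusted p under 0.01, 553 genes kept a departure. At 2-fold and more, 661 joint calls were left (407 higher, 254 lower), with 13 genes raised by both and 6 lowered by both. There 6 and 3 genes opposed. Of these 7 had a joint effect that was uncalled or under 2-fold, and 3 lay within 0.3. Among the 7 are EOMES, ZFPM2 and BRINP1, which had a joint call at the reported setting. Departures of at least 2-fold were called in 51 genes. With the position column as a fixed block 573 genes were raised and 817 lowered by both, 495 and 693 opposed, 691 of these had no joint call, 570 lay within 0.3 and 531 departed. Where both effects had to be called in each background, chosen after seeing the data, the numbers were 349, 579, 252, 510, 397 and 490. Replicate numbers did not pair the arrays (same-number correlations of -0.059 to 0.088), and the replicate block gave 6962 joint calls.

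Leaving out each array in turn gave 6497 to 7081 joint calls, 2723 to 2962 higher and 3748 to 4119 lower. Both averages were higher in 837 to 889 genes and lower in 1305 to 1399. TNFα raised and siRNA lowered 756 to 830, and the reverse held for 1200 to 1263. Of these 1104 to 1213 had no joint call and 1206 to 1351 lay within 0.3, and 774 to 1009 genes departed. The cause of these shifts was not tested.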
